A study of Ovis aries with 6 samples.

Results

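The genes described here are those of complement and of blood coagulation, 2 plasma cascades of proteases, with their receptors and inhibitors. They were chosen by name from a list of 42 symbols, and 37 of the 24390 rows of the full gene table carry one of these names. No row was matched to C2, C3, the gamma chain gene of C8, CD46 or CLU, and these 5 are not analysed here. RNA was sequenced from the fat depot that surrounds the kidney (perirenal adipose tissue) of wild type Merino sheep. The 3 fetal libraries came from fetuses aged 132 days post conception, where term is 150 days. The 3 lamb libraries came from lambs whose age the labels give as 89 days, as 80 days after birth and as 12 weeks. No animal was treated per the labels, although the lamb titles carry the letters VEH, whose meaning they do not give. The fetuses came from 3 ewes and the lambs were born to 3 others, so each library stands for 1 animal and n = 3 per stage throughout.

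Complement is a chain of plasma proteins that tags and perforates targets. The classical pathway starts when C1q binds a target and activates the proteases C1r and C1s, the lectin pathway uses the MASP proteases instead, and the alternative pathway amplifies both through factors B and D. All lead to cleavage of C3 and C5 and to a pore built from C5b to C9. Coagulation ends in thrombin, which cleaves fibrinogen and is checked by thrombomodulin, protein S and tissue factor pathway inhibitor. The liver makes most circulating factors. In fat, adipocytes are known for factor D (adipsin), macrophages for C1q and factor XIII, and endothelium for factor VIII, thrombomodulin and von Willebrand factor.

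Values are CPM, the reads of a gene scaled to library size after TMM (trimmed mean of M values) adjustment, and are given in the order of libraries 1, 2 and 3, with stage means ± SD. Differences are log2 differences, lamb minus fetal, ± SE, and a gene is called at an edgeR adjusted p below 0.05 over all genes tested. In bulk tissue fewer cells of a type and less RNA per cell cannot be told apart. Of the 37 genes, 33 passed the filter on low counts. Among them 13 were higher and 4 lower in lambs and 16 were not called, 51.5% called, beside 44.7% of all 13624 genes tested (22.0% higher and 22.7% lower). Their median log2 difference was 0.53, beside -0.01 for all genes. The counts by role below, of 2 to 7 tested genes each, stand beside the same 22.0% higher and 22.7% lower. The lamb values lay above the fetal ones without overlap in 14 of the 33 and below in 4, beside 28.2% and 29.5% of all genes. The rises were C1QA, C1R, C1S, CFD, CD55, CD59, SERPING1, C5AR1, CR2, F5, THBD, PROS1 and A2M, and the falls were MASP1, MASP2, F8 and F10.

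**Figure D1:**
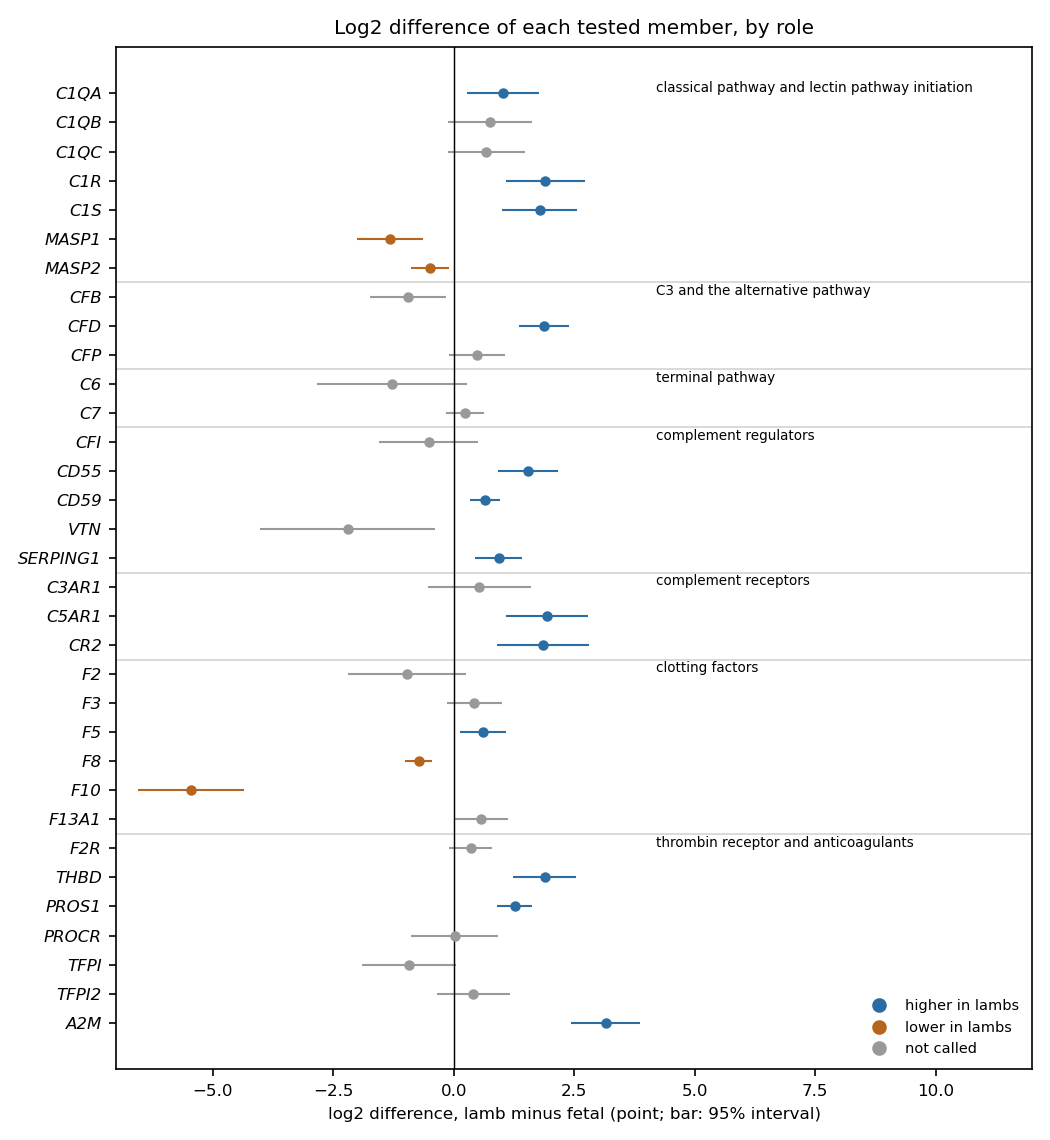
Log2 difference, lamb minus fetal, of the 33 tested genes in the order of their roles; points are edgeR estimates from 3 against 3 libraries and bars their unadjusted 95% intervals. A2M lies farthest to the right at 3.15 and F10 farthest to the left at -5.45.

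The libraries held between 15907128 and 19150428 counts. Mitochondrial genome genes took 27.5 to 40.7% of the counts in fetal and 7.37 to 8.29% in lamb libraries. With library totals in place of TMM the median of all genes moved up by 0.47, and 79.3% of all calls were higher in lambs, against 49.3% with TMM. Among the genes described here 21 were then higher and 2 lower: C1QB, C1QC, CFP, C7, F3, F13A1, F2R and TFPI2 passed as higher, and MASP2 and F8 were no longer called. Adipocyte markers, 7 of 10 with a row, summed to 13610 to 17020 CPM in fetal and 27460 to 37980 CPM in lamb libraries. Of these 7, 5 were higher and 0 lower in lambs, and PLIN1 and DGAT2 were not called. Of 14 tested macrophage markers 11 were higher and 0 lower in lambs, with sums of 220.8 to 374 CPM and 1337 to 1661 CPM. Of 10 tested endothelial markers 2 were higher and 4 lower (1455 to 1828 and 1221 to 1396 CPM). Of 10 fibroblast and preadipocyte markers 5 were higher and 0 lower (7292 to 15230 and 8375 to 9809 CPM). Of 7 hepatocyte markers 2 were higher and 4 lower (93.5 to 283 and 534 to 941 CPM, with ALB at 367 to 793 CPM in lambs). Of 8 tested neutrophil and mast cell markers 0 were higher and 5 lower, at sums of 30.7 to 69.4 and 9.90 to 17.7 CPM. All 8 urothelium and all 3 tested red cell markers were lower. Pericyte and smooth muscle markers, 1 of 7 higher and 1 lower, summed to 408 to 747 and 399 to 1475 CPM. T and B cell markers, 2 of 6 higher and 0 lower, summed to 6.55 to 10.5 and 7.75 to 29.4 CPM. The 4 platelet markers with a row were not tested and summed to at most 0.716 CPM in any library, and mesothelium, kidney and adrenal markers summed to at most 40.8, 4.12 and 54.2 CPM. Of 3 tested mesothelium markers 0 were higher and 2 lower, of 2 kidney markers none was called, and of 5 adrenal markers 1 was higher and 1 lower. The part of these markers in the differences below was not tested beyond the values given beside some of them.

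Of the 7 tested genes that start the classical and lectin pathways, 3 rose and 2 fell in lambs. C1R encodes the protease that C1q activates first (ENSOARG00000004515, chromosome 3, 207291311 to 207339991 on Oar v3.1). It was at 97.4, 71.8 and 101 CPM in the fetal libraries and 272, 535 and 202 CPM in the lamb libraries, every lamb value above every fetal one. Its mean went from 90.1 ± 16.0 to 336 ± 175 CPM, which is a log2 difference of 1.90 ± 0.35 (adjusted p = 0.00407). C1S, whose product is cleaved by C1r and in turn cleaves C4 and C2, lies 13.4 kb away on the same chromosome (chromosome 3, 207353408 to 207366557). It was at 89.4, 66.5 and 89.5 CPM in the fetal libraries and 219.6, 444 and 184 CPM in the lamb libraries, with the libraries of each stage in the same order as for C1R. The log2 difference of C1S was 1.79 ± 0.33 (adjusted p = 0.00411). Counts of C1R per C1S count stayed between 1.08 and 1.13 in fetal and between 1.10 and 1.24 in lamb libraries. Lamb library 2 held the highest values of both, and without it they were at 1.40 and 1.30 and still called. As a percentage of the summed fibroblast and preadipocyte markers C1R was at 0.640 to 0.985% in fetal and 2.26 to 5.45% in lamb libraries. That order rests on COL1A1, COL1A2 and COL3A1, which made up 73.6 to 92.1% of the sum: without these 3 collagens the share of C1R was 6.74 to 11.5% in fetal and 8.75 to 21.4% in lamb libraries, and that of C1S overlapped as well. The genes with the highest means left in that sum were DCN and LUM. Both were called higher in lambs (log2 difference 1.25 ± 0.25 and 1.00 ± 0.25). All shares without collagens, here and below, therefore depend largely on DCN and LUM.

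C1q is a bundle of 3 kinds of chain, whose genes C1QB, C1QC and C1QA lie next to each other on chromosome 2 between 243051704 and 243078666, with 12.9 kb and 0.962 kb between them. C1QA was at 33.3, 21.6 and 56.9 CPM in the fetal libraries and 90.2, 74.0 and 63.4 CPM in the lamb libraries. All lamb values were above the fetal ones, and the log2 difference was 1.02 ± 0.32 (adjusted p = 0.0353). Leaving out fetal library 1 or 2, or lamb library 1 or 2, ended the call of C1QA, at an adjusted p of 0.0981, 0.0725, 0.104 and 0.0701 in that order. C1QB was at 32.4, 19.6 and 62.7 CPM in the fetal libraries and 77.1, 60.9 and 55.4 CPM in the lamb libraries. Fetal library 3 reached into the lamb range, and C1QB was not called (log2 difference 0.75 ± 0.38, 95% interval -0.12 to 1.62, adjusted p = 0.14). C1QC was at 35.4, 26.3 and 73.8 CPM in the fetal libraries and 82.0, 71.2 and 64.2 CPM in the lamb libraries. It overlapped in the same way and was not called (log2 difference 0.68 ± 0.35, interval -0.13 to 1.49, adjusted p = 0.148). Without fetal library 3 both passed, C1QB at 1.31 (adjusted p = 0.00865) and C1QC at 1.23 (adjusted p = 0.00360). C1QA counts per C1QB count were 0.908 to 1.10 in fetal and 1.14 to 1.21 in lamb libraries.

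Most macrophage markers were also higher in lambs, as given above, though CSF1R, the receptor for their growth factor, was not called (log2 difference 0.17 ± 0.28, adjusted p = 0.649). C1QA was at 9.79 to 15.2% of the summed macrophage markers in fetal and at 4.61 to 5.43% in lamb libraries, and C1QB and C1QC also lay lower in all lambs. That order rests on the mannose receptor gene MRC1, which held 61.3 to 68.8% of the lamb sums. Without MRC1 the share of C1QA was 12.1 to 18.6% in fetal and 12.3 to 17.4% in lamb libraries, and those of C1QB and C1QC overlapped as well.

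**Figure D2:**
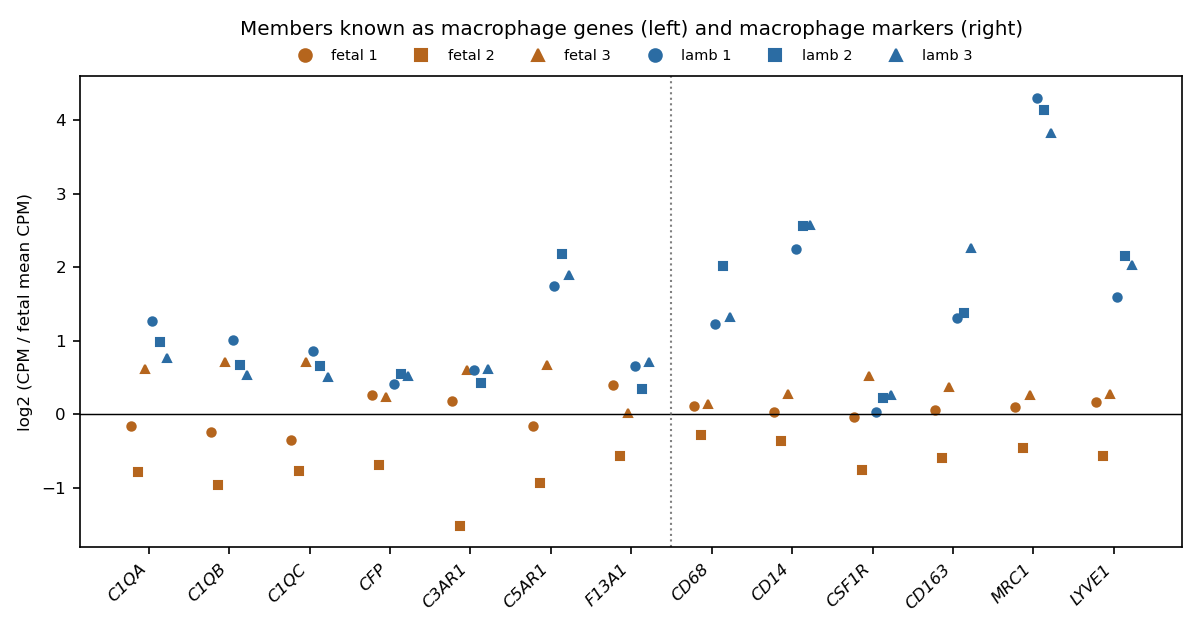
Log2 of CPM over the fetal mean CPM in each of the 6 libraries, for genes of the cascades known from macrophages (left of the dotted line) and for 6 macrophage markers (right). Fetal library 2 is the lowest fetal point for each gene shown, and the lamb points of MRC1 and CD14 lie far above those of the C1q chains.

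The MASP proteases went the other way. MASP1, a protease of the lectin pathway with several splice forms (ENSOARG00000020498, chromosome 1, 198236799 to 198300463), was at 43.5, 49.4 and 76.9 CPM in the fetal libraries and 19.3, 17.1 and 31.9 CPM in the lamb libraries. All lamb values were below the fetal ones, and it fell by 1.31 ± 0.29 on the log2 scale (adjusted p = 0.00891). MASP2, which cleaves C4 and C2 in the lectin pathway, was at 14.1, 14.1 and 11.3 CPM in the fetal libraries and 10.9, 8.36 and 8.70 CPM in the lamb libraries. It lay lower in all lambs by a small margin (log2 difference -0.50 ± 0.17, adjusted p = 0.0458). Leaving out fetal library 1 or 2, or lamb library 2 or 3, ended the call of MASP2, at an adjusted p of 0.133, 0.127, 0.116 and 0.112 in that order, and with library totals its difference was -0.01.

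Of the 3 tested alternative pathway genes, 1 rose and none fell by the test. CFD encodes factor D, the adipsin of fat cells, which cleaves factor B (ENSOARG00000009779, chromosome 5, 40807088 to 40809220). It was at 19.0, 14.2 and 23.4 CPM in the fetal libraries and 85.5, 66.6 and 55.7 CPM in the lamb libraries. Lambs were above fetuses without overlap, the mean going from 18.8 ± 4.60 to 69.3 ± 15.0 CPM (log2 difference 1.88 ± 0.22, adjusted p = 5.76e-04). CFB, whose product factor D cleaves, was at 71.9, 60.0 and 119 CPM in the fetal libraries and 34.7, 64.0 and 31.3 CPM in the lamb libraries. Lamb library 2 lay above fetal library 2, and CFB was not called (log2 difference -0.95 ± 0.34, interval -1.74 to -0.16, adjusted p = 0.0537). Without lamb library 2 it was at -1.34 and passed (adjusted p = 0.0148), as it did with upper quartile factors, the DESeq2 Wald test, the edgeR exact test or limma-voom. CFP encodes properdin, which stabilises the alternative convertase, and was at 8.97, 4.63 and 8.77 CPM in the fetal libraries and 9.88, 10.9 and 10.7 CPM in the lamb libraries. Its stages did not overlap, but the log2 difference of 0.49 ± 0.25 was not called (adjusted p = 0.152). As a share of the macrophage markers CFP was lower in all lambs (2.1 to 2.78% in fetal and 0.595 to 0.8% in lamb libraries). Without MRC1 in the sum it was lower too (2.59 to 3.43% and 1.85 to 2.07%).

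Of the 6 genes of the pore 2 were tested, and neither was called. C7, whose product is the pore component often made outside the liver, was at 275, 287 and 303 CPM in the fetal libraries and 267, 400.3 and 356 CPM in the lamb libraries. The stages overlapped (log2 difference 0.24 ± 0.17, interval -0.15 to 0.64, adjusted p = 0.28). As a share of the fibroblast and preadipocyte markers C7 overlapped too. Without the 3 collagens in the sum its share was 19.0 to 37.4% in fetal and 12.1 to 16.0% in lamb libraries. C6, 143 kb from C7 on chromosome 16, had a fetal mean of 1.73 CPM and a lamb mean of 0.698 CPM without being called (log2 difference -1.28 ± 0.67). C5, C8A, C8B and C9 did not pass the filter. C5, the target of the convertases, had 2, 24 and 1 fetal counts and 0, 17 and 1 lamb counts. Only the second library of each stage held more than 2 counts of it. C9 had 0, 9 and 0 fetal counts and 0, 3 and 0 lamb counts, again in those libraries alone. C8A and C8B, 12.0 kb apart on chromosome 1, had 0 fetal counts and 4 and 6 lamb counts in all. For fetal libraries 1 to 3, 0 counts set an upper limit of 0.179, 0.221 and 0.179 CPM, for counting error only.

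Among the 5 tested regulators of complement 3 rose. CD59 encodes the membrane protein that blocks the pore (ENSOARG00000017909, chromosome 15, 62538805 to 62552821) and was at 264, 267 and 235 CPM in the fetal libraries and 389, 439 and 368 CPM in the lamb libraries. It was higher in every lamb by a small and even margin (log2 difference 0.65 ± 0.13, adjusted p = 0.00602). CD55, which speeds the decay of the convertases on cell surfaces, was at 4.90, 2.72 and 3.04 CPM in the fetal libraries and 11.5, 11.5 and 8.20 CPM in the lamb libraries. Its log2 difference was 1.54 ± 0.27 (adjusted p = 0.00315), with no overlap. SERPING1 encodes the C1 inhibitor, which stops C1r, C1s and the MASP proteases, and was at 156, 88.4 and 118 CPM in the fetal libraries and 239, 244 and 209 CPM in the lamb libraries. All lambs were above all fetuses (log2 difference 0.93 ± 0.21, adjusted p = 0.00865). As a share of the fibroblast and preadipocyte markers SERPING1 was at 1.03 to 1.21% in fetal and 2.34 to 2.85% in lamb libraries. Without the 3 collagens in the sum the shares were 10.8 to 13.3% and 9.05 to 10.8%. CFI, the protease that inactivates C3b and C4b, had means of 5.01 and 3.50 CPM with overlap (log2 difference -0.52 ± 0.44, adjusted p = 0.368).

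VTN encodes vitronectin, a plasma inhibitor of the pore. It had 24, 41 and 6 fetal counts and 5, 11 and 4 lamb counts, and its log2 difference of -2.20 ± 0.78 did not pass (adjusted p = 0.0517). It passed without fetal library 3 (-2.69, adjusted p = 0.0142) and with upper quartile factors, the DESeq2 Wald test or the edgeR exact test. Its fetal counts were highest in library 2 and lowest in library 3, and the part of liver RNA was not tested. Over the 11 hepatocyte markers with a row the highest fetal count was in library 2 for 7 and in library 1 for 4. The lowest was in library 3 for 9, the exceptions being ALB (lowest in library 1) and APOA1 (lowest in library 2).

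C5AR1, the receptor for the inflammatory fragment C5a (ENSOARG00000011005, chromosome 14, 53371557 to 53384260), was at 2.39, 1.40 and 4.24 CPM in the fetal libraries and 8.99, 12.1 and 10.00 CPM in the lamb libraries. It rose without overlap by 1.94 ± 0.36 on the log2 scale (adjusted p = 0.0042). C3AR1, the C3a receptor, had means of 1.89 and 2.77 CPM with overlap and was not called (log2 difference 0.53 ± 0.46, interval -0.53 to 1.60, adjusted p = 0.374). C5AR1 counts per C3AR1 count were 1.11 to 2.11 in fetal and 3.14 to 4.78 in lamb libraries. Against macrophage markers without MRC1, C5AR1 was at 0.781 to 1.39% in fetal and 1.74 to 2.06% in lamb libraries; with MRC1 in the sum the stages overlapped. CR2, a receptor for C3 fragments known from B cells, was at 2.69, 1.32 and 3.52 CPM in the fetal libraries and 13.4, 7.94 and 6.20 CPM in the lamb libraries. It lay higher in all lambs (log2 difference 1.86 ± 0.41, adjusted p = 0.00848). Among B cell markers CD79A was higher in lambs (log2 difference 1.48 ± 0.48), with a fetal value of 0.956 CPM above the lowest lamb value of 0.950. MS4A1 and CD79B were not tested.

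**Figure D3:**
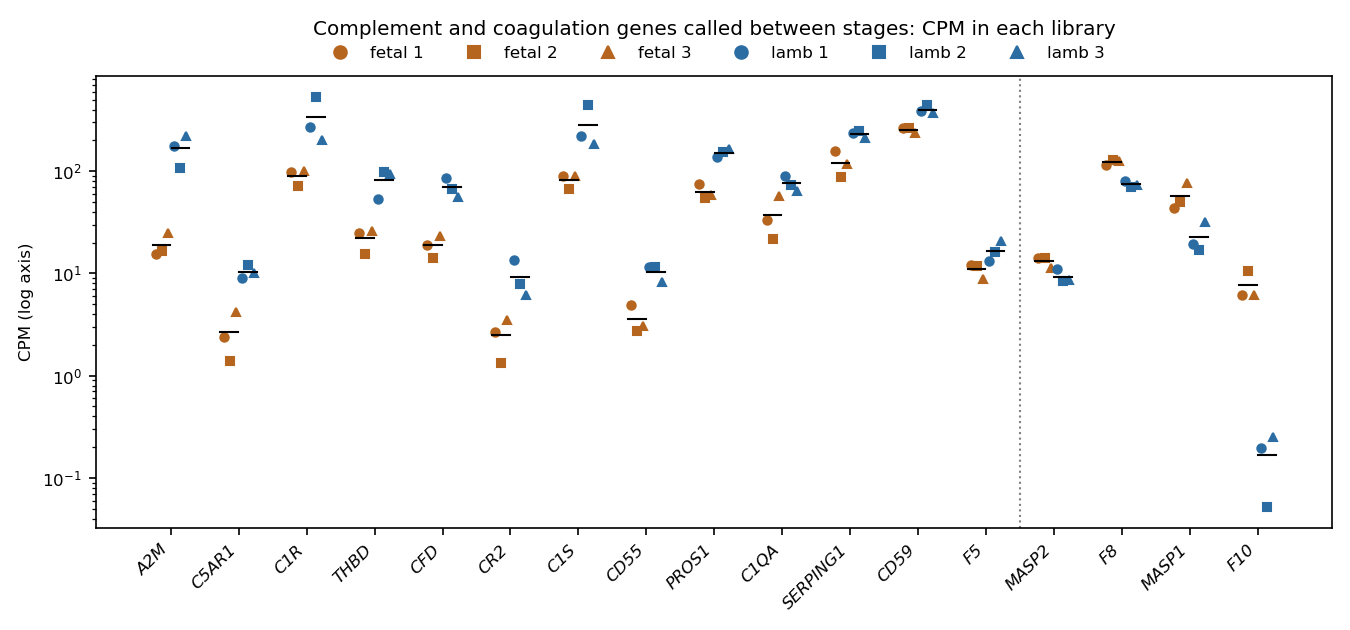
CPM on a log axis in each of the 6 libraries for the 17 genes called between stages, 13 higher in lambs to the left of the dotted line and 4 lower to the right; black bars are stage means of 3 libraries. No gene shown has overlapping stages, and F10 spans the widest gap, from 6.09 CPM or more in fetuses to 0.250 CPM or less in lambs.

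Of 6 clotting factors 2 fell and 1 rose. F10 encodes factor X, the protease that turns prothrombin into thrombin (ENSOARG00000007822, chromosome 10, 85837672 to 85852793). It had 104, 144 and 102 fetal counts and 4, 1 and 5 lamb counts. In CPM it went from 7.63 ± 2.56 to 0.166 ± 0.103 CPM, or by a log2 difference of -5.45 ± 0.47, which is 43.6-fold lower in lambs (adjusted p = 1.61e-04). Leaving out any 1 library kept it between -5.83 and -5.04. Of the 7 tested hepatocyte markers APOA1 also fell without overlap, at 673, 426 and 521 fetal counts and 235, 160 and 133 lamb counts. AHSG, SERPINA1 and FETUB were lower with overlap, and ALB and TF were higher. In fetal library 3, with 102 counts of F10, ALB had 774 counts, APOA1 521, SERPINA1 3 and AHSG 0. Of 8 neutrophil and mast cell markers 5 were lower in lambs too. All 8 urothelium markers were lower, with sums of 53.7 to 187 CPM in fetal and 0.500 to 0.692 CPM in lamb libraries. All 3 tested red cell markers were also lower, and the red cell sums were 358 to 1273 and 30.5 to 56.4 CPM. Of 3 tested mesothelium markers 2 were lower as well. The sums of the other lists are given above. The part of any of these lists in the fall of F10 was not tested. F7, 2.65 kb from F10 on chromosome 10, had 2 counts in all, and PROZ, 2.03 kb away on the other side, was not called (log2 difference 0.58 ± 0.46).

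F8 encodes factor VIII, the cofactor of factor IX, which endothelium makes (ENSOARG00000003319, chromosome X, 75411090 to 75545562). It was at 114, 130.0 and 127 CPM in the fetal libraries and 80.7, 70.0 and 73.2 CPM in the lamb libraries. All lamb values were lower (log2 difference -0.73 ± 0.12, adjusted p = 0.00217); with library totals the difference was -0.25 and not called. F8 was at 6.94 to 7.83% of the summed endothelial markers in fetal and at 5.05 to 6.61% in lamb libraries. F5, the cofactor of factor X, was at 12.1, 11.8 and 8.89 CPM in the fetal libraries and 13.1, 16.2 and 20.7 CPM in the lamb libraries. Lambs were above fetuses by a narrow margin (log2 difference 0.61 ± 0.21, adjusted p = 0.0463). That call was lost on leaving out any fetal library (adjusted p = 0.0701, 0.0765 and 0.137 without libraries 1, 2 and 3), lamb library 2 (0.0809) or lamb library 3 (0.133).

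F3 encodes tissue factor, which starts coagulation outside vessels, and was at 17.1, 30.7 and 19.6 CPM in the fetal libraries and 35.5, 24.1 and 30.9 CPM in the lamb libraries. Fetal library 2 overlapped the lambs, and F3 was not called (log2 difference 0.43 ± 0.24, interval -0.14 to 0.99, adjusted p = 0.186). Without that library it was at 0.72 and passed (adjusted p = 0.0307). F13A1, the chain of factor XIII that cross-links fibrin and is made by resident macrophages, was at 42.8, 21.8 and 32.8 CPM in the fetal libraries and 51.0, 41.3 and 53.2 CPM in the lamb libraries. It overlapped in fetal library 1 and was not called (log2 difference 0.58 ± 0.23, adjusted p = 0.0806). Without fetal library 1 it passed at 0.82 (adjusted p = 0.0262). As a share of the macrophage markers F13A1 was lower in all lambs with MRC1 in the sum (8.77 to 13.2% against 2.57 to 3.98%) and without it (10.8 to 16.4% against 7.00 to 10.3%). F2, which encodes prothrombin, had means of 1.29 and 0.650 CPM and was not called (log2 difference -0.97 ± 0.53, adjusted p = 0.171). Without lamb library 1 it was at -1.63 (adjusted p = 0.0440).

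Of the thrombin receptor and the anticoagulant genes 3 rose and none fell by the test. A2M encodes alpha-2-macroglobulin, a broad trap for proteases (ENSOARG00000000950, chromosome 3, 205464543 to 205535076). It was at 15.5, 16.7 and 24.6 CPM in the fetal libraries and 177, 106 and 221 CPM in the lamb libraries. Every lamb value was over 4 times the highest fetal value, and the mean went from 18.9 ± 4.92 to 168 ± 58.2 CPM (log2 difference 3.15 ± 0.31, adjusted p = 2.58e-04). Of the 33 genes it had the largest rise. As a share of the fibroblast and preadipocyte markers A2M was at 0.102 to 0.229% in fetal and 1.08 to 2.48% in lamb libraries. Without the 3 collagens in the sum the shares were 1.08 to 2.78% and 4.26 to 9.58%. THBD encodes thrombomodulin, the endothelial receptor that turns thrombin to the activation of protein C (ENSOARG00000005117, chromosome 13, 40956482 to 40958250). It was at 24.8, 15.6 and 25.7 CPM in the fetal libraries and 53.6, 97.3 and 94.3 CPM in the lamb libraries. Lambs stood above fetuses without overlap (log2 difference 1.89 ± 0.28, adjusted p = 0.00144). THBD was at 0.921 to 1.71% of the summed endothelial markers in fetal and at 4.39 to 7.02% in lamb libraries. Its neighbour CD93, a receptor of endothelium and myeloid cells 22.9 kb away on chromosome 13, fell by 2.32 ± 0.15 (adjusted p = 6.16e-05).

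PROS1 encodes protein S, the cofactor of activated protein C, and was at 75.5, 55.1 and 58.8 CPM in the fetal libraries and 138, 153 and 166 CPM in the lamb libraries. It was higher in every lamb (log2 difference 1.27 ± 0.16, adjusted p = 6.40e-04). As a share of the fibroblast and preadipocyte markers PROS1 was at 0.496 to 0.756% in fetal and 1.56 to 1.85% in lamb libraries. Without the 3 collagens in the sum the shares overlapped, at 5.22 to 7.17% and 6.14 to 7.16%. PROCR, the receptor that presents protein C to thrombomodulin, had means of 17.1 and 17.3 CPM. Its difference was 0.02 ± 0.39, with an interval of -0.88 to 0.92. TFPI, the inhibitor of tissue factor, had means of 3.91 and 2.05 CPM and was not called (log2 difference -0.93 ± 0.42, adjusted p = 0.106). TFPI2, a related inhibitor held in the extracellular matrix, was at 131, 268 and 133 CPM in the fetal libraries and 192, 318 and 196 CPM in the lamb libraries. In both stages library 2 was the highest, the stages overlapped and the gene was not called (log2 difference 0.41 ± 0.33, interval -0.35 to 1.17, adjusted p = 0.339). Without fetal library 2 TFPI2 was at 0.84 and passed (adjusted p = 0.0466). F2R, the main thrombin receptor, was at 40.5, 49.4 and 63.2 CPM in the fetal libraries and 65.4, 75.0 and 54.7 CPM in the lamb libraries. It was not called either (log2 difference 0.35 ± 0.19, adjusted p = 0.17).

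The order of the libraries within a stage was counted over these genes. Fetal library 2 was the lowest fetal library for 16 of the 33 genes tested, beside 36.0% of all genes tested, and fetal library 3 the highest for 16, beside 32.5%. The fibroblast sum was also lowest in fetal library 2, at 7292 CPM, and so was the macrophage sum, at 220.8 CPM. Lamb library 2 was the highest lamb library for 13 of the 33, beside 32.3% of all genes. C1R, C1S, CFB, C7 and TFPI2 were among them. The pericyte and smooth muscle sum was 1475 CPM there and 399 and 484 CPM in the other lambs, and the smooth muscle gene DES was at 100.4, 66.2 and 24.5 CPM in the fetal libraries and 27.1, 331 and 28.3 CPM in the lamb libraries. The part of these cells in the values of that library was not tested.

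**Figure D4:**
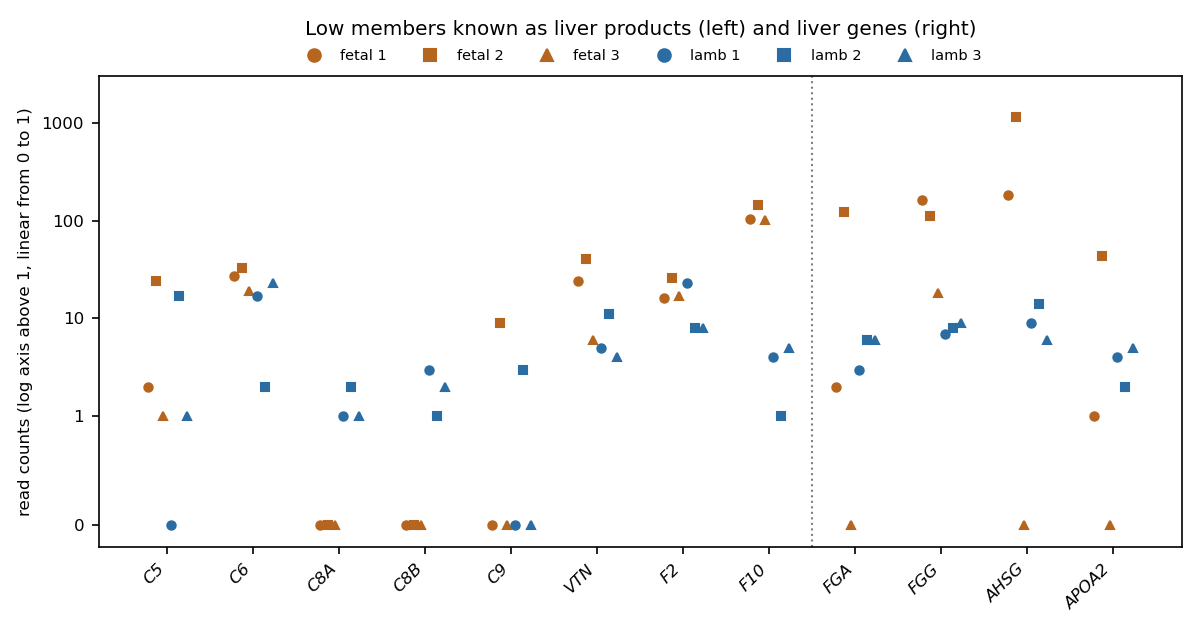
Read counts in each of the 6 libraries for low genes of the cascades known as liver products (left of the dotted line) and for the liver genes FGA, FGG, AHSG and APOA2 (right); the axis is linear from 0 to 1 and logarithmic above. Fetal library 2 holds the highest counts of C5, C9, VTN, FGA, AHSG and APOA2, and of F10, which is at 102 to 144 counts in the 3 fetal libraries.

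Genes of the cascades outside the list of 42 were read from 2 further lists. Of 20 rows of other complement genes 13 were tested, with 3 higher, 2 lower and 8 not called (median log2 difference 0.56). That is 38.5% called, beside 44.7% of all genes tested, whose median was -0.01. C5AR2, a second C5a receptor 12.6 kb from C5AR1, rose by 1.39 ± 0.36 (adjusted p = 0.0161). ITGB2 and ITGAM, the chains of complement receptor 3, were called at 1.00 ± 0.32 and 0.99 ± 0.28. Both calls were lost on leaving out single libraries: for ITGB2 either of fetal libraries 1 and 2 (adjusted p = 0.0791 and 0.0801) or of lamb libraries 1 and 2 (0.110 and 0.0826), for ITGAM fetal library 1 (0.0513) or either of lamb libraries 1 and 2 (0.0519 and 0.0659). Falls were seen for CD93, as given above, and for C1QBP, a mitochondrial protein that binds C1q, at -1.03 ± 0.18 (adjusted p = 0.00328). The C4 gene stands at 2 loci of chromosome 20 whose reads may have been split between near-identical copies. The copy with more reads was at 3230, 1016 and 2335 fetal counts and 2992, 7964 and 2203 lamb counts, with library 2 the lowest fetal and the highest lamb, and neither copy was called.

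Of 27 rows of other coagulation genes 13 were tested, with 3 higher, 3 lower and 7 not called (median 0.23). That is 46.2% called, beside 44.7% of all genes tested. F2RL2 encodes a further thrombin-cleaved receptor, 92.3 kb from F2R on chromosome 7. It had 8, 0 and 3 fetal counts and 261, 135 and 109 lamb counts, a log2 difference of 5.15 ± 0.68 (adjusted p = 8.91e-04). Leaving out any 1 library gave 4.66 to 6.33. KNG1, which encodes kininogen, had 48, 10 and 4 fetal counts and 238, 170 and 360 lamb counts and rose by 3.30 ± 0.69 (adjusted p = 0.00638), or by 2.80 to 4.75 on leaving out any 1 library. F11, the gene of factor XI, had 6, 3 and 1 fetal counts and 20, 41 and 27 lamb counts and rose by 2.77 ± 0.59 (adjusted p = 0.00705), or by 2.31 to 3.40 on leaving out any 1 library. FGG, a fibrinogen chain, had 162, 111 and 18 fetal counts and 7, 8 and 9 lamb counts and a log2 difference of -3.94 ± 0.79 (adjusted p = 0.00542). With limma-voom it was not called (-3.34, adjusted p = 0.0666). Its lowest fetal count was in library 3, as for 9 of the 11 hepatocyte markers but not for ALB and APOA1. GGCX, which carboxylates the vitamin K dependent factors, fell by 0.79 ± 0.16 (adjusted p = 0.00521), but was not called with library totals (-0.31). GP5, a platelet glycoprotein gene at -1.15 ± 0.39, kept its call on leaving out fetal library 1 only; without fetal library 2 the adjusted p was 0.152 and without fetal library 3 0.126. Without lamb libraries 1, 2 and 3 it was 0.124, 0.0538 and 0.101. VWF was not called (log2 difference 0.27 ± 0.19, adjusted p = 0.271).

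The authors' deposited table called 12 of the 13 genes higher in lambs and 3 of the 4 genes lower. F5 and MASP2 were not called there, with adjusted p of 0.0792 and 0.196 in the authors' deposited table. CFB and VTN, not called here, were lower in the authors' deposited table (adjusted p = 0.0152 and 0.0223). Levels can be set between genes only per length. In the authors' deposited table the highest lamb means were 304.9 RPKM (reads per kilobase of gene model, scaled to library size) for TFPI2, 273 for CD59 and 106 for SERPING1.

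**Figure D5:**
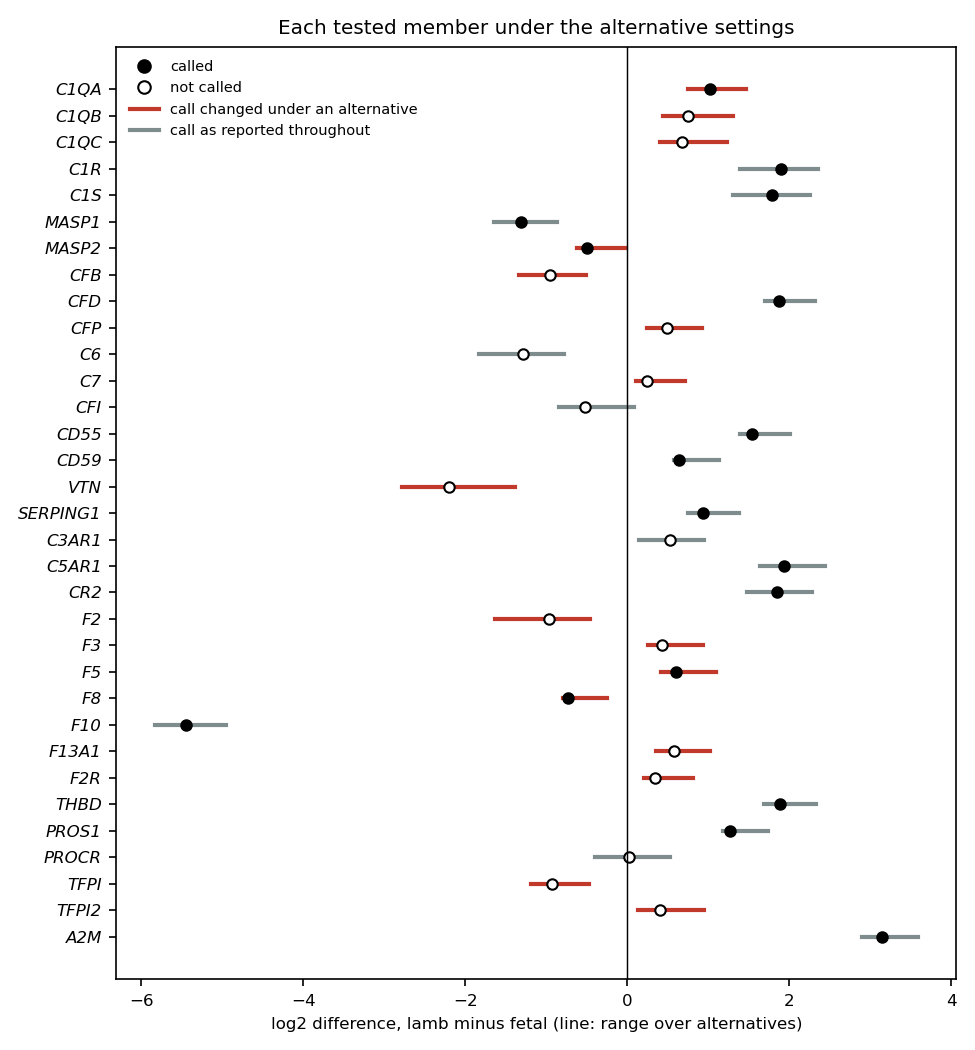
Log2 difference, lamb minus fetal, of the 33 tested genes; circles are the reported values (filled where called) and lines the range over 17 alternative settings, in red where the call changed under at least 1 of them. Of the 17 called genes 13 kept their call throughout.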

How the data were processed

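RNA of perirenal fat from 3 fetuses and 3 lambs was sequenced as single-end 50 bp reads from TruSeq libraries, per the labels' protocols. CLC Genomics Workbench 7.0 mapped the reads, with Ensembl gene models on Oar v3.1, per the series' design text. How multiply placed reads and strand were handled is not stated there, so genes that overlap or share near-identical sequence are uncertain. The authors deposited read counts per gene and library, RPKM (used as stage means only), and the signed fold score, p-value and adjusted p-value of their own edgeR test. Changes of stage in RPKM and in counts lay within 1.5-fold of each other for 33 of 35 genes. The exceptions were C9 and C1R, which rose less in RPKM (31.5 in fetuses, 91.5 in lambs) than in counts. A further 2 genes with 0 fetal counts have an RPKM above 0, so RPKM served for description only. The 12 RPKM columns of single libraries were not used, because a header repeats another sample's name.

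Here the deposited counts went into edgeR 4.0.16 under R 4.3.3: filterByExpr, TMM factors, and the quasi-likelihood F test of stage without covariates, adjusted by Benjamini-Hochberg over 13624 genes at 0.05. The SE is the log2 difference over the root of F, and 95% intervals use the test's degrees of freedom. Alternatives used limma 3.58.1 and DESeq2 1.42.0. The fit was tested on simulated data in which 200 genes were changed, 13777 were tested and every gene had the same set spread. The fit recovered 64% of 100 genes changed 2-fold and 95% of 100 genes changed 4-fold, so a gene not called may still differ. In the real libraries a far larger share of genes was called and spread varied by gene, so these rates do not give the power there. Replicate numbers did not pair the samples. No 2 libraries agreed within sampling noise.

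Values in every library are given for called genes at 1 CPM or more and for genes not called at 20 CPM or more. They are also given for CFP, which was not called and lies below that limit. From the lists of other genes the 3 largest rises and falls called at 1 CPM or more are named. The counts of VTN, C5 and C9, the genes of the closing observations, and the hepatocyte genes, the collagens, VWF, PROZ, F7, C4, MRC1, DES and the B cell markers were picked after their values were seen. Sums without MRC1 or without collagens were added after seeing the data. The genes and lists were chosen with earlier results of these data known. No sequence is shown, since none was used here. A marker gene is not reported here.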

Additional observations from a re-analysis of the deposited data

How the results depend on the processing

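Under 17 alternatives, 13 of the 17 called genes of the cascades kept direction and call; C1QA, MASP2, F5 and F8 lost the call under at least 1, and none of the 17 changed sign. Of the 16 genes not called, 12 passed under at least 1 alternative and C6, CFI, C3AR1 and PROCR under none. With library totals 5598 genes of the whole table were higher and 1459 lower, 21 and 2 of the listed genes, and 12 and 3 of the other complement and coagulation genes, against 6 and 5; the scaling itself moves all differences up. The other genes lower numbered 8 with no filter beyond 1 count, where more genes are tested, and 3 with limma-voom, where the cause was not tested. Leaving out 1 library gave 2286 to 2796 genes higher and 2512 to 2903 lower, 11 to 14 and 3 to 5 of the listed genes, and 4 to 7 and 4 to 5 of the other genes. No label ties the replicate numbers to shared animals or days, and deviations of same-numbered samples correlated at -0.019, -0.119 and 0.029. A fit with a replicate block called 2598 genes higher and 2755 lower, and 13 and 5 of the listed genes: F5 and MASP2 lost the call, and VTN (adjusted p = 0.0227), TFPI (0.0484) and F13A1 (0.0294) passed. Genes of a few counts, such as C5, C8A, C8B and C9, are limited by depth.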

Other observations

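Some liver products outside the list of 42 had most of their counts in 1 or 2 libraries. KLKB1, which encodes plasma prekallikrein, had 0, 1 and 0 fetal counts and 21, 282 and 8 lamb counts, and lies 6.09 kb from F11. PLG, the plasminogen gene, had 5, 37 and 7 fetal counts and 1, 1 and 3 lamb counts. SERPINC1, the antithrombin gene, had 2, 37 and 0 fetal counts and 6, 27 and 10 lamb counts, most of them in the second library of each stage, as for C5 and C9. SERPINA5 had 80, 8 and 15 fetal counts and 6, 5 and 6 lamb counts. MBL2, which encodes the mannose-binding lectin that works with the MASP proteases, and SERPIND1 had 0 counts in every library. COLEC12 encodes a collectin of the cell surface. Its fetal values were 26.8, 12.3 and 15.9 CPM, and its lamb values, which overlapped them, were 26.0, 28.1 and 18.9 CPM. COLEC12 was not called (log2 difference 0.41 ± 0.29), but passed without fetal library 1 (0.78, adjusted p = 0.0341).

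The 3 C1q chains had similar counts. By RPKM, which also divides by the length of the gene model, C1QA stood at 5.17 in fetuses and 14.1 in lambs in the authors' deposited table. C1QB stood at 33.7 and 74.7 RPKM there and C1QC at 38.0 and 80.6 RPKM. The lengths of the gene models were not compared.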
